A study of Mus musculus with 4 samples.

Results

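The genes described here are 10 members and outputs of the circadian clock: Dbp, Tef, Hlf, Per1, Per2, Per3, Nr1d1, Nr1d2, Arntl and Ciart. They were taken by name as a readout of clock state, 10 of the 32285 genes in the files, and their UMIs were counted in all 4 libraries of dissociated mouse ovary. The genes were chosen by their UMI levels and differences between these same libraries in an earlier look at the data, so that both are given as a description, with no p-values, and where calls of the fit over all genes are counted for them nothing is read from the counts. In the molecular clock, the transcription factors CLOCK and BMAL1 (the product of Arntl) bind E-boxes and switch on the Per, Nr1d, Dbp and Ciart genes. PER proteins and CHRONO, the product of Ciart, repress that activity, whereas the REV-ERB receptors made by Nr1d1 and Nr1d2 repress Arntl. DBP, TEF and HLF are PAR bZIP factors that carry the rhythm to output genes through D-boxes, and in many organs, the ovary included, these transcripts rise and fall over the day.

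Ovaries came from 8-week-old female littermates. The Cyp19a1-Cre line had a C57BL/6J background, and that of the floxed line is not given in the sources used here. Fosl2F/F mice (2 libraries) carried floxed Fosl2 alleles (Fosl2 flox/flox) without Cre, and Fosl2cKO mice (2 libraries) were Cyp19a1-Cre; Fosl2 flox/flox, in which the aromatase promoter drives Cre in granulosa cells (GCs). FOSL2 is an AP-1 transcription factor. The study's methods give a light-dark housing cycle and have 1 operator handling all samples in parallel within a day, and the hour at which each ovary was taken is not given in the sources used here. Genotype and any difference between the animals in that hour therefore cannot be told apart. The labels number the libraries as replicates, and the study's group size equals the number of libraries, without a statement that each library is a single animal.

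After filtering, 41538 cells remained, between 6760 and 19575 per library, with 104303269 to 111314200 UMIs. Fosl2F/F replicate 2 stood apart with a median of 3655 UMIs per cell, against 11177 to 12465 in the other libraries. Libraries shared 15 to 81 cell barcodes, at most 0.763% of the smaller library. Cells fell into 26 clusters, which were named from markers as GC-like, stromal-like and so on, and these rebuilt names are not the authors' own. Cluster 2, led by Abcb1b, Dync1i1 and Gpx3, stayed unnamed and is called the Abcb1b cluster. The targeted gene Fosl2 stood in GC-like cells at 167 and 164 CPM in Fosl2F/F and at 163 and 116 CPM under the label Fosl2cKO (CPM, UMIs scaled to a common library total by TMM), so the first library labelled Fosl2cKO was close to the Fosl2F/F level. A 3′ tag outside the deleted part would not show the deletion, and where these tags lie was not tested. By immunoblot, the study reported depletion of FOSL2 protein in GCs of Fosl2cKO mice, which is a measure of protein and not of these libraries. Every direction below is that of the library labels.

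Sequence around the start sites was examined for the elements through which the clock acts. RefSeq windows of 250 bases before to 50 bases after the start (build GRCm38.p6) were found for 9 of the 10 genes, 12 windows in all. In all, 5 motifs were searched on both strands. CACGTG, the E-box, lay in 4 windows of 3 genes (Tef, Per1 and Ciart) and in 7.15% of all 32851 windows. The related element CACGTT lay in 1 window, that of Nr1d1, and in 4.68% of all windows. TTATGTAA, a D-box, lay in 1 window, that of Per3, and in 0.938% of all windows, and TTACGTAA lay in no window of these genes and in 0.119% of all. TAGGTCA, the core of the element that REV-ERB receptors bind, lay in 1 of the overlapping windows of Arntl and in 2.61% of all. CACGTG reads alike on both strands and none of the matches overlapped. The windows below, 1 for each gene with a match, are shown for that match, in capitals, with that of Dbp beside them as the gene that differed most between the libraries and whose window holds none.
Each is written 5′ to 3′ on the strand of the gene.
Dbp (chr7:45704997-45705296, plus strand): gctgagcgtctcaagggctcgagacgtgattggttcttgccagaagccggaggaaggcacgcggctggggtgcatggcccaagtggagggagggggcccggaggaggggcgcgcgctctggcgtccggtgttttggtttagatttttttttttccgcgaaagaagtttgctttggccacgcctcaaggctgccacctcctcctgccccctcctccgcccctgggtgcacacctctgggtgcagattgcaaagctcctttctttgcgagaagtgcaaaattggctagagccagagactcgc
Tef (chr15:81802423-81802722, plus strand): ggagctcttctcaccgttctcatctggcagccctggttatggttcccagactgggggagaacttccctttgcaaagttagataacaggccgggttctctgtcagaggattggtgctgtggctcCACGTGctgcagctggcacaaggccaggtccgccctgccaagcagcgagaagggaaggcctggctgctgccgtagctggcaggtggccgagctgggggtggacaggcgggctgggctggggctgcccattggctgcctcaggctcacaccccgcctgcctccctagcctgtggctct
Per1 (chr11:69098699-69098998, plus strand): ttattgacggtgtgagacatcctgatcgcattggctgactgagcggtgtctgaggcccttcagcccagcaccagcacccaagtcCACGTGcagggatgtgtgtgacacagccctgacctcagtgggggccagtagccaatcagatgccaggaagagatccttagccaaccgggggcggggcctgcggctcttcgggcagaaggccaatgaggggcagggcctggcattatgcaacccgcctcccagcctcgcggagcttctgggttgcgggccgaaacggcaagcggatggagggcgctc
Per3 (chr4:151044616-151044915, minus strand): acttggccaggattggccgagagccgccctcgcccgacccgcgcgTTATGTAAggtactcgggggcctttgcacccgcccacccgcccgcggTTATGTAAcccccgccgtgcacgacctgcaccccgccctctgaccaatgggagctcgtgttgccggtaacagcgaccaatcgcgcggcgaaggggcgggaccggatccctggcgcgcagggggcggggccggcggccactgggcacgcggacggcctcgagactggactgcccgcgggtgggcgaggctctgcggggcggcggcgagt
Nr1d1 (chr11:98775328-98775627, minus strand): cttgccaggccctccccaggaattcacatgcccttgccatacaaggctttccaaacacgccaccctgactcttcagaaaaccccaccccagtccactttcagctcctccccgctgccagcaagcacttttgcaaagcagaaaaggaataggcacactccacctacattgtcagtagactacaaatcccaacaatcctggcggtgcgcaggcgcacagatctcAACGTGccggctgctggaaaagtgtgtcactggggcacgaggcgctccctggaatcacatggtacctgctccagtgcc
Arntl (chr7:113207261-113207560, plus strand): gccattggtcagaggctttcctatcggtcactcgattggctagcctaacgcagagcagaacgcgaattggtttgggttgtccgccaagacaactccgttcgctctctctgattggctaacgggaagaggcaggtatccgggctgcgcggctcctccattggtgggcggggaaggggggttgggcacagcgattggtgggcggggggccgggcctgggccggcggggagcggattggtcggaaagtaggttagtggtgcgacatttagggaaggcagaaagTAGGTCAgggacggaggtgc
Ciart (chr3:95882179-95882478, minus strand): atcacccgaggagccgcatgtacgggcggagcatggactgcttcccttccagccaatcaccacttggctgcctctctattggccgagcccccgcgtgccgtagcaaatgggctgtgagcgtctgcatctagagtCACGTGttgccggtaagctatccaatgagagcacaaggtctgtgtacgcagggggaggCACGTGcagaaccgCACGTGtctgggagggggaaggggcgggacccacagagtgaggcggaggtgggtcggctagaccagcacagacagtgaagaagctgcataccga
Ciart had 3 E-boxes, at 116, 58 and 44 bases before the start, and Per1 and Tef had 1 each in the windows shown, at 166 and 127 bases. The other window of Tef, which is not shown, held an E-box 138 bases before its start. Per3 had 2 D-boxes, at 205 and 158 bases. In Nr1d1 the element was written AACGTG on the gene's strand, 28 bases before the start, and in Arntl TAGGTCA lay 30 bases after it. These are matches of letters in short windows, not measured binding sites. Per2 had no window in the table.

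Dbp, a PAR bZIP gene that cycles in many tissues, had the largest difference between the groups among the 10 genes over all cells. Over all cells, with 1007 to 5227 UMIs per library, its level was 9.97 CPM in Fosl2F/F replicate 1, 18.1 CPM in Fosl2F/F replicate 2, and 45.6 and 41.9 CPM in Fosl2cKO replicates 1 and 2. The groups did not overlap, as was so in this direction for 14.8% of all genes tested, and the means were 14.0 ± 5.76 and 43.8 ± 2.64 CPM (SD, n = 2). The log2 fold change was 1.64 ± 0.31 (SE). Tef and Per3 also did not overlap over all cells, with smaller gaps. GC-like cells, in which Dbp was low, were 56.1% of cells in Fosl2F/F replicate 1 and 32.5% to 34.0% in the other libraries, and the part of class composition in the all-cell level was not tested.

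The difference was seen in steroidogenic and supporting cells alike. In theca-like cells, the androgen-producing layer of the follicle, Dbp stood at 11.8 and 9.54 CPM in Fosl2F/F and at 82.8 and 43.2 CPM in the libraries labelled Fosl2cKO, a log2 fold change of 2.55 ± 0.36. Epithelial-like cells, which cover the ovary, had 36.2 and 23.4 against 95.2 and 159 CPM. In both classes the lower of the libraries labelled Fosl2cKO was more than the higher Fosl2F/F library. Pericyte or smooth muscle-like cells had 17.0 and 12.3 against 63.2 and 49.2 CPM, and stromal-like cells had 10.2 and 8.17 against 38.7 and 25.2 CPM. The Abcb1b cluster, with the highest Dbp of the classes, had 52.5 and 32.8 against 127 and 170 CPM. Log2 fold changes in these 3 were 1.95 ± 0.29, 1.80 ± 0.30 and 1.81 ± 0.30, and again no library of 1 group reached the other group.

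**Figure D1:**
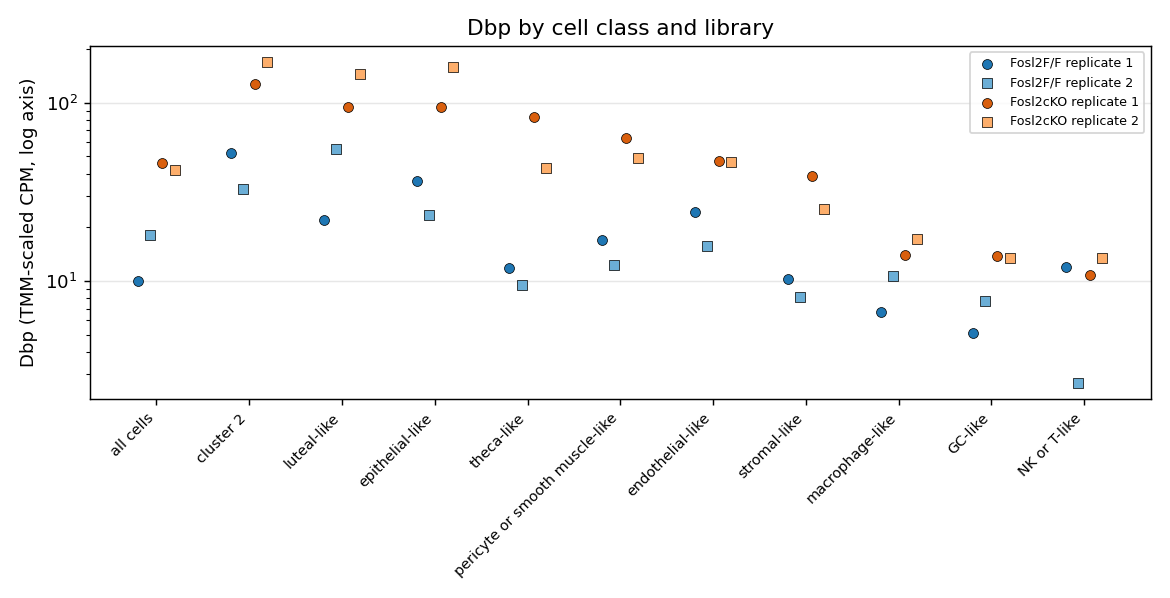
Dbp in all cells and in 10 cell classes (x axis), as TMM-scaled CPM on a log axis, with 1 point per library. Both libraries labelled Fosl2cKO lie above both Fosl2F/F libraries in all cells and in each class but NK or T-like cells, where counts were 1 to 12 UMIs.

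In the remaining classes with enough counts the direction was the same, with smaller log2 fold changes. Luteal-like cells, which make progesterone, had 22.0 and 55.2 against 94.2 and 146 CPM, a log2 fold change of 1.62 ± 0.49, although the gap in CPM was wider than in theca-like cells. Endothelial-like cells had 24.3 and 15.7 against 47.4 and 46.4 CPM, a change of 1.31 ± 0.31. GC-like cells, where Cre is expressed, had 5.08 and 7.70 against 13.8 and 13.4 CPM, a log2 fold change of 1.10 ± 0.26. Macrophage-like cells had 6.68 and 10.6 against 13.9 and 17.2 CPM, a change of 0.81 ± 0.40. The change in GC-like cells was thus the second lowest of 9 classes, but the difference in fold between classes was not tested. In the 4 classes in which Dbp did not pass the filter on low counts, UMIs ran from 0 to 28 per library. Of these, lymphatic endothelial-like cells had 2 and 0 UMIs in Fosl2F/F and 28 and 8 UMIs in the libraries labelled Fosl2cKO, whereas the groups overlapped in NK or T-like, dendritic-like and B lymphocyte-like cells.

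Counted over classes, both libraries labelled Fosl2cKO were above both Fosl2F/F libraries for Dbp in 9 of the 9 classes in which it was tested, against 16.4% of all gene and class pairs. Dbp passed edgeR's quasi-likelihood test (adjusted p under 0.1 over all genes and log2 fold change over 0.25 in size) in 5 of these classes, against 0.137% of all pairs. Because the gene was chosen with this contrast known, nothing is read from these counts. Those 5 classes were the Abcb1b cluster and epithelial-like, pericyte or smooth muscle-like, stromal-like and theca-like cells. Dbp did not pass in all cells or in GC-like cells, where 0.00492% and 0.00579% of all genes did. It did pass in all cells with DESeq2, as did 0.734% of genes, and with the replicate block, as did 38 of 20308 genes. In GC-like cells it passed with DESeq2, as did 1.01% of genes, and without the filter on low counts, as did 275 of 25890 genes. In the edgeR test as first given, no other gene of the 10 passed in any class. Leaving out 1 library at a time gave 1 to 6 classes, with the call lost in pericyte or smooth muscle-like, stromal-like, theca-like and epithelial-like cells without either Fosl2F/F library, while log2 fold changes in these classes stayed between 1.46 and 2.95. With DESeq2, Dbp passed in 7 classes, against 0.65% of all pairs and 0.734% of genes in all cells.

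The makeup of the GC-like class differed between libraries: in the order of Fosl2F/F replicates 1 and 2 and Fosl2cKO replicates 1 and 2, cumulus-like cells were 9.09%, 31.8%, 19.8% and 14.8% of it and mural-like cells 27.8%, 14.0%, 15.8% and 10.3%. The part of this makeup in values over all GC-like cells was not tested. Among GC-like cells, Dbp was highest in cumulus-like cells, which surround the oocyte, at 10.7 and 14.1 CPM in Fosl2F/F and at 33.6 and 37.3 CPM under the label Fosl2cKO, a log2 fold change of 1.498 ± 0.246. It passed the edgeR test in this subclass, where 0.0991% of genes did, and in no other. Because the gene was chosen with this contrast known, nothing is read from this call. That call was lost without TMM scaling, with cells over 2000 UMIs or under 5% mitochondrial UMIs alone, and without either Fosl2F/F library, with changes from 1.10 to 1.73. Atretic-like cells had 4.25 and 6.25 against 16.1 and 12.4 CPM. Mural-like cells, which line the follicle wall, had 8.70 and 8.23 against 14.7 and 10.9 CPM, a log2 fold change of 0.60 ± 0.30. Mitotic-like cells had the lowest mean, at 2.11 and 3.70 against 4.42 and 5.21 CPM. The groups did not overlap in any of these 4 subclasses, nor in mitotic-antral-like cells or the subcluster led by Cited1 and Amh, and the libraries labelled Fosl2cKO were the higher ones in all 6. In a further subcluster, where Dbp was too low to be tested, the groups overlapped at 2.65 and 10.4 against 6.64 and 12.96 CPM. The last subcluster had 18 cells in Fosl2F/F replicate 1, under the minimum of 20, and was not fitted. The order seen in the 6 was found in 17.5% of all gene and subclass pairs.

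Tef and Hlf, the other PAR bZIP factors, differed less. Tef, known as thyrotroph embryonic factor, stood at 27.5 and 27.9 CPM in the GC-like cells of Fosl2F/F and at 30.4 and 27.6 CPM in the libraries labelled Fosl2cKO, so the groups overlapped. In stromal-like cells it had 28.1 and 28.2 against 48.8 and 35.5 CPM, and in theca-like cells 19.7 in both against 42.8 and 24.5 CPM. Groups did not overlap in these, nor in 6 more of the 11 classes in which Tef was tested, and all 8 times the libraries labelled Fosl2cKO were higher, an order found in 16.4% of all gene and class pairs. The classes share the same libraries, so counts over classes, for Tef and for the genes below, are not independent. Nothing is read from them. The median log2 fold change over classes was 0.42 for Tef and 1.80 for Dbp.

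Hlf, first known from a leukaemia fusion and a marker of quiescent stem cells, ranged widely between classes, from near the limit of detection in macrophage-like cells to a mean of 56.8 CPM in pericyte or smooth muscle-like cells. In GC-like cells it stood at 9.15 and 21.8 CPM in Fosl2F/F against 16.4 and 14.5 CPM under the label Fosl2cKO, with a log2 fold change of 0.00 ± 0.39. In pericyte or smooth muscle-like cells it was 44.5 and 48.9 against 73.8 and 60.2 CPM, and in NK or T-like cells 13.4 and 18.8 against 35.1 and 37.9 CPM, from 7 to 39 UMIs. The groups did not overlap in 5 of 9 classes tested, with the libraries labelled Fosl2cKO higher in all 5 (16.4% of all pairs). Fosl2F/F replicate 1 was the lowest library in 8 of the 9 classes, and the share of all pairs with that library lowest was not counted. Outside the 10 genes it was also the lowest for Gsk3b in 12 of 13 classes and for Rora in 10 of 12. For Rbm3 it was the highest in 13 of 13, for Tsc22d3 in 8 of 13 and for Tspan4 in 7 of 10, so genes went both ways. Within GC-like cells, Hlf stood at 34.0, 55.2, 49.2 and 51.1 CPM in cumulus-like cells and at 3.38, 6.79, 6.05 and 3.54 CPM in mural-like cells of Fosl2F/F replicates 1 and 2 and Fosl2cKO replicates 1 and 2. Every cumulus-like value was above every mural-like one, and the level over all GC-like cells had the same order of libraries as the share of cumulus-like cells.

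**Figure D2:**
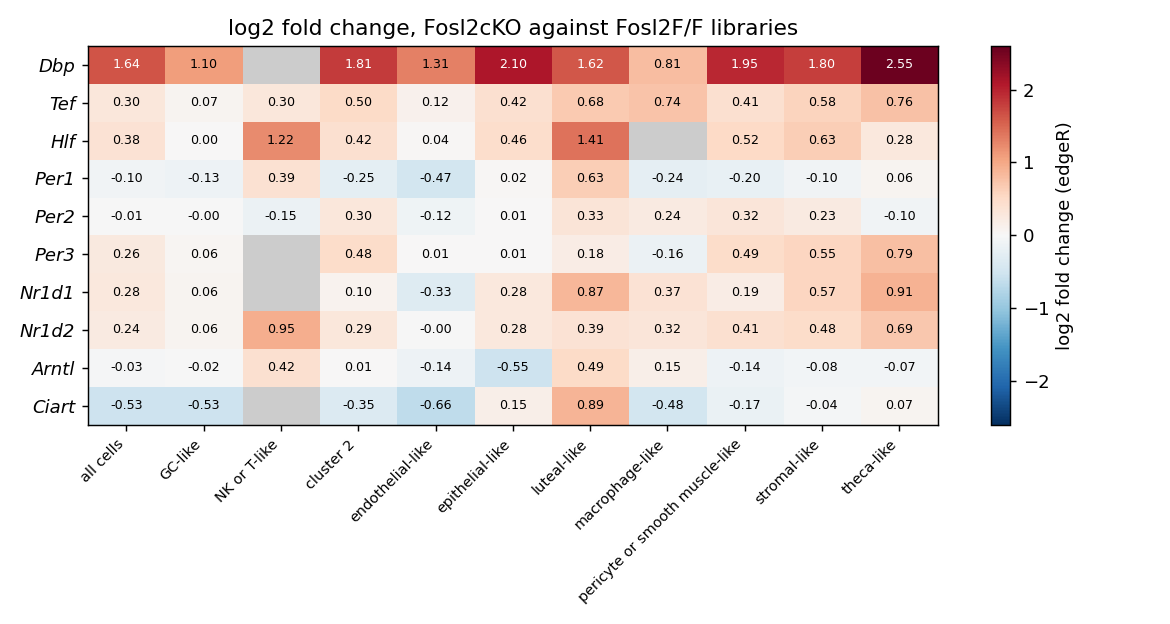
log2 fold change from edgeR (colour and number) of each gene (rows) between the 2 libraries labelled Fosl2cKO and the 2 Fosl2F/F libraries, in all cells and 10 classes (columns); grey marks gene and class pairs that did not pass the filter on low counts. The Dbp row runs from 0.81 to 2.55, and no value of another gene exceeds 1.41.

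The Period genes encode the repressors of the negative limb. Over all gene and class pairs, both libraries labelled Fosl2cKO were above both Fosl2F/F libraries in 16.4% and below them in 16.3%, and the counts of the Period genes are given against these shares. Per1, which also answers acutely to glucocorticoid and cAMP signals, stood in GC-like cells at 34.0 and 39.1 CPM in Fosl2F/F and at 36.0 and 30.7 CPM in the libraries labelled Fosl2cKO. In stromal-like cells it had 39.7 and 57.5 against 56.8 and 34.0 CPM. High and low values were thus found in each group. Per1 groups overlapped in 9 of 12 classes, with the libraries labelled Fosl2cKO higher in 2 and lower in 1, and Fosl2F/F replicate 2 was the highest library in 8 of the 12.

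Per2, the repressor that recruits cryptochromes, had 25.4 and 30.8 against 31.7 and 24.4 CPM in GC-like cells, and its groups overlapped in 10 of 10 classes. The second library of Fosl2F/F and the first of Fosl2cKO were the higher ones. In theca-like cells the order was the same, with 22.3, 39.7, 40.0 and 18.8 CPM in Fosl2F/F replicates 1 and 2 and Fosl2cKO replicates 1 and 2. Its log2 fold changes ran from -0.15 to 0.33. In cumulus-like cells Per2 stood at 55.7, 62.8, 78.5 and 61.9 CPM in that order of libraries, more than in mural-like cells at 29.3, 24.5, 22.9 and 16.8 CPM, and the ranges of these subclasses did not overlap.

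Per3, the Period gene that is least needed for rhythm, had 16.1, 24.3, 23.4 and 18.6 CPM in GC-like cells. It was higher in both libraries labelled Fosl2cKO in 4 of 10 classes (16.4% of all pairs), among them theca-like cells with 11.1 and 12.3 against 24.7 and 16.1 CPM. Dbp was higher in these 4 as in all 9 classes in which it was tested, so the match of classes says nothing more. Per3 changes in the 4 were 0.48 to 0.79 on the log2 scale. In the other 6 classes the groups overlapped.

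Nr1d1 and Nr1d2, the REV-ERB receptors that repress Arntl, share E-box control with Dbp. Nr1d1 showed a different order of libraries from Dbp. Over all cells Nr1d1 had 21.1, 45.3, 50.9 and 29.8 CPM in Fosl2F/F replicates 1 and 2 and Fosl2cKO replicates 1 and 2. In theca-like cells it had 19.0 and 29.2 against 76.2 and 16.5 CPM, so that the 2 libraries labelled Fosl2cKO held both the highest and the lowest value. In stromal-like cells it was 19.2 and 19.5 against 41.6 and 15.9 CPM. Fosl2cKO replicate 1 was the highest library in 8 of 10 classes and Fosl2cKO replicate 2 the lowest in 6, while for Dbp neither was the lowest in any class. Of the 10 classes, luteal-like cells alone kept the groups apart, with 56.7 and 121 against 170 and 155 CPM, a share near the 16.4% of all pairs.

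Nr1d2 had the group order of Dbp in part of the classes. It had 42.2, 60.7, 55.8 and 51.6 CPM in GC-like cells, in which the groups overlapped, and 31.3 and 56.4 against 89.9 and 69.0 CPM in NK or T-like cells, in which they did not. Groups were apart in 7 of 11 classes, with the libraries labelled Fosl2cKO higher (16.4% of all pairs), and Fosl2F/F replicate 1 was the lowest library in 9. The share of all pairs with that library lowest was not counted. In stromal-like cells the gap was small, at 56.7 CPM for the higher Fosl2F/F library and 57.0 CPM for the lower library labelled Fosl2cKO.

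Arntl encodes BMAL1, the activator that in peripheral clocks peaks out of phase with Dbp and the Nr1d genes. Its levels over all cells were 13.4, 30.5, 25.8 and 17.4 CPM in the same order of libraries, with the first Fosl2F/F and the second Fosl2cKO library low. In GC-like cells the values were 10.1, 14.1, 14.6 and 9.21 CPM, and in epithelial-like cells 15.2, 46.5, 32.3 and 9.01 CPM. The groups overlapped in 10 of 11 classes (16.4% of all pairs had the libraries labelled Fosl2cKO higher and 16.3% lower), and NK or T-like cells, with 84.9 and 83.3 against 115 and 110 CPM, were the exception.

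Ciart, whose product CHRONO represses BMAL1, had no library that was highest throughout. Fosl2F/F replicate 1 was the highest in 3 of 9 classes and the lowest in luteal-like cells, at 6.63 against 15.8, 24.2 and 18.7 CPM, and the groups were apart with the libraries labelled Fosl2cKO higher in 1 class and lower in 2 (16.4% and 16.3% of all pairs). In GC-like cells it stood at 31.0 CPM in Fosl2F/F replicate 1 and at 15.5, 14.1 and 18.2 CPM in the other libraries, from 609 to 2137 UMIs. Among the GC-like subclasses, mitotic-antral-like cells had the widest gap, at 49.4 against 18.5, 19.1 and 25.8 CPM, and mitotic-like cells had 35.7 against 19.2, 12.2 and 21.7 CPM. In stromal-like cells Ciart was low and even, between 6.08 and 8.54 CPM. The other classes in which Fosl2F/F replicate 1 was highest were endothelial-like cells, at 32.0 against 25.6, 18.4 and 17.2 CPM, and pericyte or smooth muscle-like cells, at 13.5 against 11.5, 11.7 and 10.4 CPM. In GC-like cells it was the library with the lowest Dbp.

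**Figure D3:**
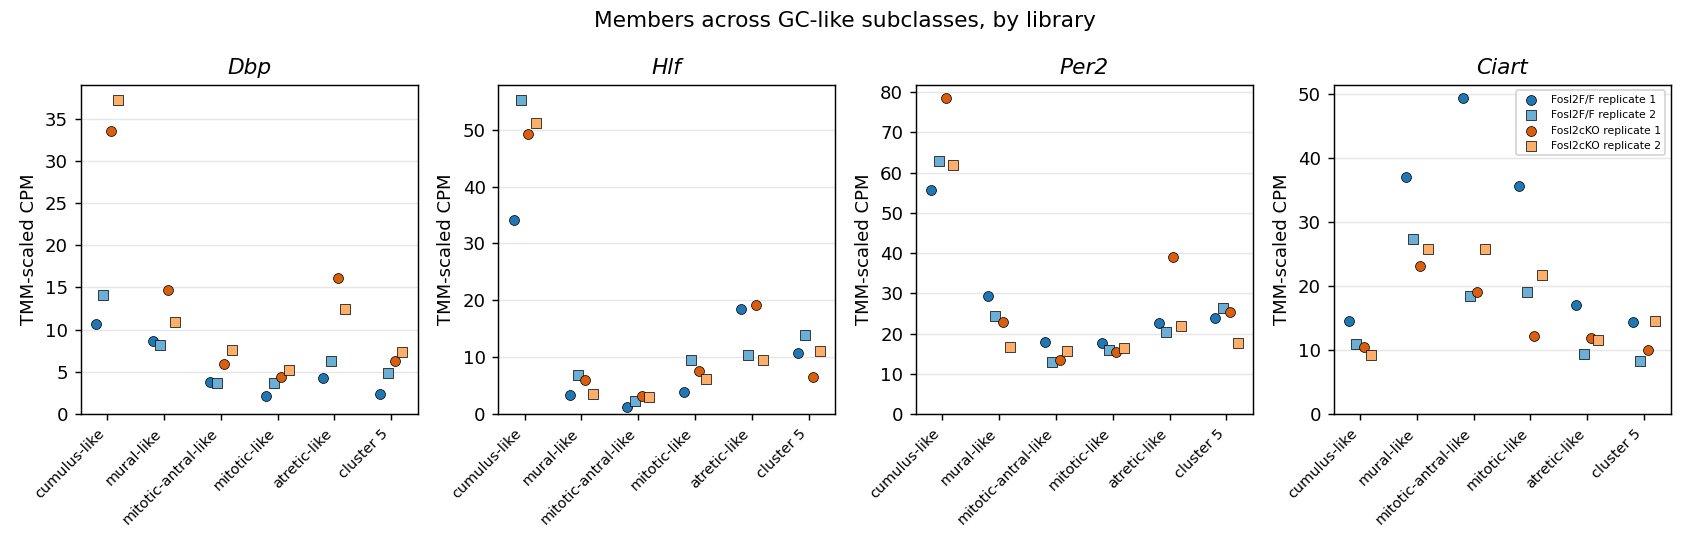
Dbp, Hlf, Per2 and Ciart in 6 GC-like subclasses (x axis) as TMM-scaled CPM on linear axes from 0, with 1 point per library. Dbp, Hlf and Per2 are highest in cumulus-like cells, where Dbp reaches 37.3 CPM, and Ciart is highest in mural-like, mitotic-antral-like and mitotic-like cells of Fosl2F/F replicate 1.

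To set the genes on 1 scale, the class mean of log2(CPM + 1) was subtracted and the deviations were averaged over 11 classes with at least 50 cells in every library. Dbp deviated by -0.81 and -0.75 in the Fosl2F/F libraries and by 0.71 and 0.85 in the libraries labelled Fosl2cKO. Arntl deviated by -0.44, 0.37, 0.25 and -0.18, Nr1d1 by -0.32, 0.08, 0.52 and -0.28, and Per2 by -0.36, 0.25, 0.30 and -0.18 in the order of Fosl2F/F replicates 1 and 2 and Fosl2cKO replicates 1 and 2. The last 3 genes were therefore low in the same libraries, 1 from each group. Fosl2F/F replicate 1 had a negative deviation for every gene of the set. Over the 44 class and library points, which share animals and scaling, Pearson's r was 0.70 between Nr1d1 and Per2 and 0.70 between Nr1d1 and Per1. For Dbp it was 0.64 with Tef, 0.56 with Hlf, 0.37 with Nr1d1, 0.07 with Per1 and -0.02 with Arntl.

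**Figure D4:**
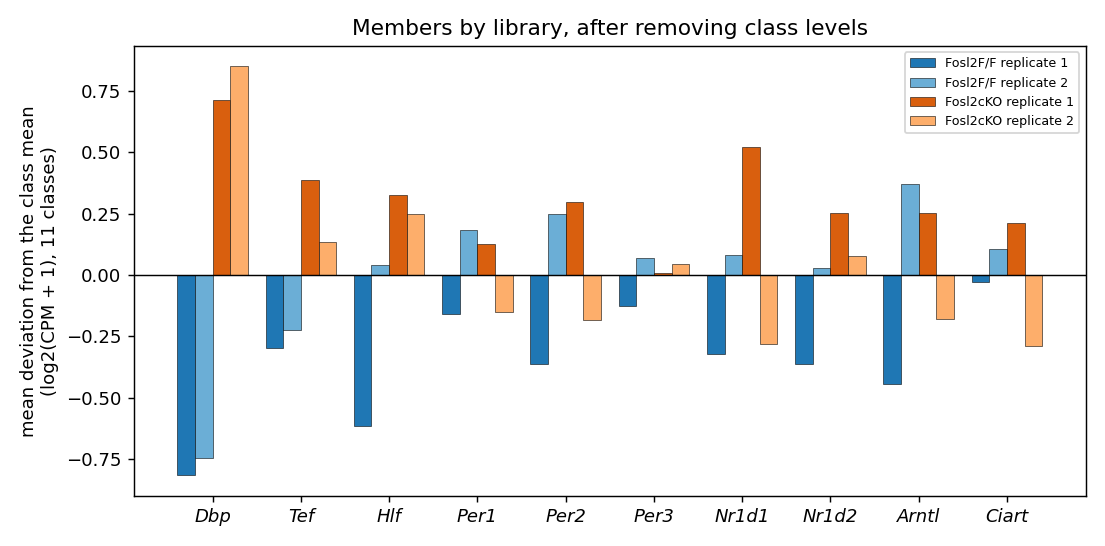
Mean deviation of each gene (x axis) from its class mean, in log2(CPM + 1) over 11 classes, with 1 bar per library. Dbp and Tef are below 0 in both Fosl2F/F libraries and above 0 in both libraries labelled Fosl2cKO; Per1, Per2 and Arntl are below 0 in Fosl2F/F replicate 1 and Fosl2cKO replicate 2.

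By the same measure, 7645 genes with a mean of at least 20 CPM were ranked by their likeness to Dbp. The most alike were Med30, a Mediator subunit (r = 0.87), Dnttip1 (0.87), Ssbp4 (0.86), Fam174a (0.84) and Marc2 (0.83). Eif3f, a subunit of a translation initiation factor (0.82), Drap1 (0.82), Cebpd, a bZIP factor induced by inflammatory and hormone signals (0.82), Scand1 (0.81) and Pacs1 (0.81) followed. Cebpd, for example, stood at 15.9 and 26.3 CPM over all cells in Fosl2F/F and at 115 and 104 CPM in the libraries labelled Fosl2cKO. Ciart was below this minimum and was not ranked. None of the other 8 genes was among these 10, and Tef and Hlf ranked 166 and 314, with 95% of genes below an r of 0.53. At the other end were Actb (-0.78), Dnajc19 (-0.77), Rpl36al (-0.77), 4930453N24Rik (-0.76) and Pin4 (-0.76).

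Across cell classes the levels of most of the genes ran in parallel. Over the mean levels of the 11 classes (log2(CPM + 1), a description over classes), r with Dbp was 0.96 for Nr1d1, 0.84 for Per2, 0.80 for Tef, 0.80 for Nr1d2 and 0.79 for Per3. Epithelial-like and luteal-like cells and the Abcb1b cluster were the highest for Nr1d1, at 138 ± 41.5, 126 ± 50.5 and 84.5 ± 8.08 CPM (SD, n = 4 libraries), and for Nr1d2, at 109 ± 22.6, 105 ± 21.2 and 104 ± 13.9 CPM. Neighbours in this order overlapped in range for both genes. Dendritic-like cells were the lowest for 8 of the 10 genes, with 3.24 ± 1.56 CPM of Nr1d1 and 9.48 ± 1.43 CPM of Nr1d2.

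Hlf, Per1 and Arntl departed from this order, with an r of 0.16, 0.24 and 0.30 with Dbp. Ciart had an r of 0.55 with Dbp, but of 0.83 with Per2, 0.80 with Nr1d2, 0.78 with Tef, 0.76 with Per3 and 0.70 with Nr1d1. Ciart was highest in endothelial-like cells, at 23.3 ± 6.88 CPM, and in GC-like cells, at 19.7 ± 7.73 CPM, whose ranges overlapped, and the Abcb1b cluster was at 10.2 ± 1.65 CPM. Hlf was highest in pericyte or smooth muscle-like cells, at 56.8 ± 13.1 CPM, and in epithelial-like cells, at 55.9 ± 13.3 CPM, whose ranges overlapped. It was near the limit of detection in macrophage-like cells (0 to 7 UMIs per library) and at 2.16 ± 1.05 CPM in the Abcb1b cluster, where Dbp was highest. Per1 was highest in epithelial-like cells, at 117 ± 10.8 CPM, above the range of NK or T-like cells at 72.1 ± 13.9 CPM, and lowest in GC-like cells, at 35.0 ± 3.53 CPM. Arntl was highest in NK or T-like cells, at 98.2 ± 16.5 CPM, above the range of the next class, luteal-like cells, at 39.6 ± 20.7 CPM. Of the 10 steps between neighbouring classes in each gene's order, the ranges over libraries overlapped in 8 to 10, so most neighbours were not separated by their spread.

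**Figure D5:**
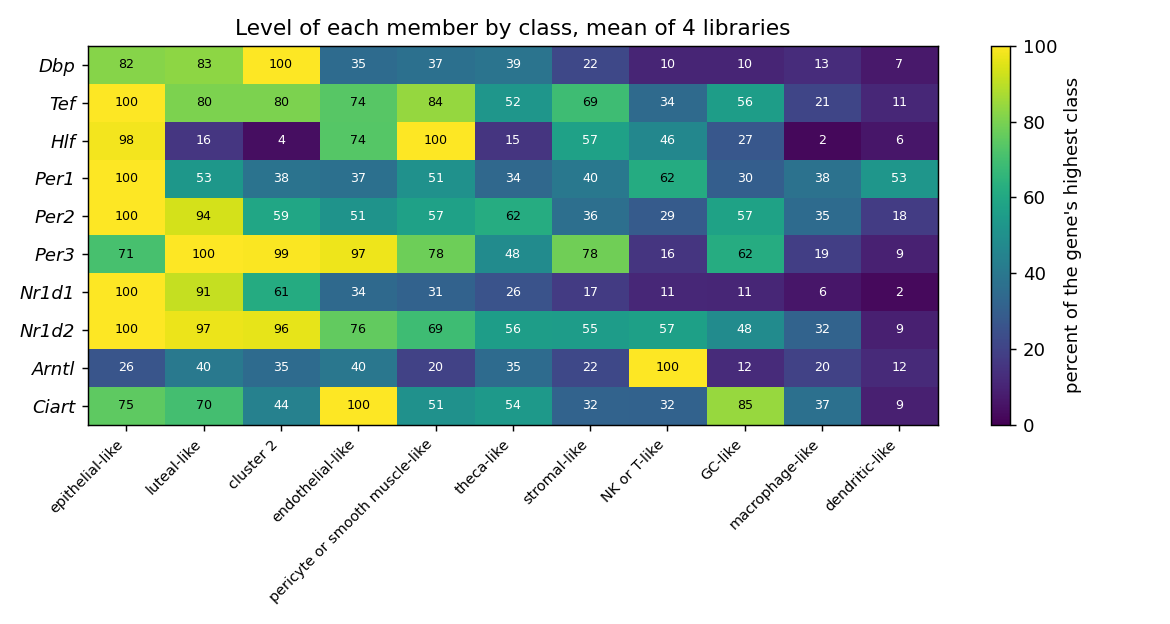
Mean level over 4 libraries of each gene (rows) in 11 cell classes (columns), as percent of that gene's highest class. Nr1d1 and Dbp peak in epithelial-like cells, luteal-like cells and the Abcb1b cluster (cluster 2), Hlf in pericyte or smooth muscle-like cells and Arntl in NK or T-like cells.

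The genes lie on 7 chromosomes of GRCm38 (GENCODE M21), and some share their locus. Dbp (chr7:45705088-45710203, plus strand) overlaps Sphk2 on the other strand, and Nr1d1 (chr11:98767932-98775333, minus strand) overlaps Thra on the other strand. Whether counting used strand is not stated for these files. In all cells Sphk2 stood at 13.5, 8.84, 10.6 and 9.36 CPM and Thra at 77.5, 83.9, 93.5 and 84.1 CPM in the order of Fosl2F/F replicates 1 and 2 and Fosl2cKO replicates 1 and 2. Per3 (chr4:151003652-151044665, minus strand) overlaps Camta1 on its own strand, and Tef, Arntl and Ciart each overlap a gene of uncertain function on the other strand.

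Genes of the clock outside the 10 were tested in the same fits, and none passed. Of the 12 other core clock genes, 0 of 110 gene and class pairs passed with edgeR over the 13 classes, as did 0 of 92 pairs of 8 kinase and turnover genes and 0 of 51 pairs of 5 output genes. With all cells included, 10 of 122, 1 of 100 and 1 of 56 pairs had an unadjusted p under 0.05, against 5.42% of all pairs, and DESeq2 called 0 of the pairs. At the 0.137% of all pairs that passed, lists of this size would hold few or no calls. The pairs share libraries and the lists were chosen with earlier results known, so nothing is read from these counts. Rora, an activator of Arntl, stood in all cells at 476 and 824 CPM in Fosl2F/F and at 719 and 716 CPM in the libraries labelled Fosl2cKO. Clock, the partner of BMAL1, had 106 and 138 against 131 and 119 CPM, Bhlhe40, a repressor at E-boxes, 104 and 158 against 170 and 101 CPM, and Cry2, a cryptochrome, 71.2 and 121 against 104 and 80.5 CPM. All 4 overlapped between groups.

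The kinases and ligase subunits that set PER and CRY turnover also overlapped for Csnk1d, with 93.6 and 115 against 111 and 96.2 CPM, and for Fbxw11, with 157 and 186 against 196 and 161 CPM, and Fbxw7, with 103 and 123 against 118 and 115 CPM. Gsk3b had 278 and 311 against 345 and 344 CPM, a log2 fold change of 0.23 ± 0.18. Among output genes, Tsc22d3, which answers to glucocorticoids, had 91.9 and 45.8 against 46.3 and 65.4 CPM, Tspan4 58.4 and 66.8 against 76.4 and 58.1 CPM, and Usp2, a cycling deubiquitinase, 23.3 and 26.5 against 26.9 and 22.0 CPM. Wee1, a cell cycle kinase under E-box control, had 29.5 and 34.0 against 36.4 and 43.0 CPM, with a log2 fold change of 0.32 ± 0.19. Nfil3, the repressor at D-boxes that opposes the PAR bZIP factors, was picked after its values were seen. It was higher in both libraries labelled Fosl2cKO in 8 of 12 classes, against 16.4% of all pairs, without passing (lowest adjusted p 0.308, edgeR), with 25.8 and 37.4 against 43.5 and 51.4 CPM in GC-like cells.

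Genes that answer to temperature, stress and handling were measured beside the clock. Cirbp and Rbm3, RNA-binding genes induced by cooling and cycling with body temperature, passed in 0 of 26 gene and class pairs (lowest adjusted p 0.179, edgeR), with 10 of 28 pairs under an unadjusted p of 0.05 when all cells are included (5.42% of all pairs). Cirbp stood in all cells at 234 and 171 CPM in Fosl2F/F and at 112 and 151 CPM in the libraries labelled Fosl2cKO, and it was lower in both of the latter in 12 of 13 classes, against 16.3% of all pairs. Rbm3 had 862 and 517 against 427 and 582 CPM. Cirbp was highest in Fosl2F/F replicate 1 in 11 of 13 classes and lowest in Fosl2cKO replicate 1 in 12. The classes share the same libraries, and the all-cell sums contain the classes. The list was also chosen with earlier results known, so nothing is read from these counts. The 12 immediate early genes summed to 9944 and 10658 CPM in Fosl2F/F and to 10925 and 9406 CPM in the libraries labelled Fosl2cKO, led by Fos, Jun and Fosb. Classes differed in direction, with 6762 and 9160 against 13212 and 15376 CPM in luteal-like cells. In endothelial-like cells the sums were 8124 and 7710 against 7120 and 6228 CPM. The 7 heat shock genes, led by Hsp90aa1, Hspd1 and Hspe1, summed to 2194 and 2178 against 1813 and 1961 CPM. The 7 glucocorticoid-responsive genes, led by Mt1, Fkbp5 and Klf9, summed to 970 and 1313 against 1393 and 996 CPM. None of their genes passed with edgeR in the 13 classes (0 of 153, 0 of 87 and 0 of 83 pairs), and with all cells included 15 of 165, 11 of 94 and 8 of 90 pairs had an unadjusted p under 0.05, against 5.42% of all pairs. These lists too were chosen with earlier results known and their pairs share libraries, so nothing is read from the counts. Their part in the level of Dbp was not tested.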

How the data were processed

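Single-cell libraries of mouse ovary (10x 3′ v3) were deposited as matrices of UMI counts. The authors deposited raw counts per gene and cell barcode, made with Cell Ranger (7.1.0 in the file headers, an earlier version in the methods) on GRCm38, and the submitters' processing notes name Seurat 4.1.0. CellBender and DoubletFinder appear in the methods, and whether the matrices were made after CellBender is not given in the sources used here. Removal of free RNA before counting would lower counts of abundant genes in cells that lack them.

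From these counts, cells with at least 500 genes, at least 1000 UMIs, under 10% mitochondrial and under 0.1% haemoglobin UMIs were kept, with doublets removed (5.74% to 19.4% of cells per library). Cells were integrated and clustered with Seurat 5.3.0, and clusters were named from markers, the limits for a name being set after the clusters were seen. UMIs were summed per library and class, and the 13 classes with at least 20 cells in every library were fitted. CPM was computed here with TMM. The test was edgeR 4.0.16 (quasi-likelihood, Benjamini-Hochberg adjustment, 2 libraries against 2, adjusted p under 0.1 and log2 fold change over 0.25 in size), run on all genes past the count filter. DESeq2 1.42.0 was an alternative, beside other filters, no integration and leaving out each library. The edgeR fit was tried on simulated counts for all cells, GC-like cells and stromal-like cells, and the other steps were not tested in that way. The p-values measure only the spread between these libraries, which may be technical.

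The members and lists were chosen with earlier results of these data known. Genes outside the 10 were named by rule: up to 4 per clock, output and temperature list and 3 per stress list by mean CPM, the 10 most and 5 least like Dbp, and Fosl2. Nfil3 was picked after its values were seen, and Sphk2, Thra and Camta1 are named because they overlap a member. Promoter windows came from RefSeq. Cells of the oocyte-like cluster were too few for a fit.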

Additional observations from a re-analysis of the deposited data

Results flagged for a closer look

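In Per1 and Ciart, both libraries of a group moved one way in some classes and the opposite way in others, and the difference between classes was not tested. Over all gene and class pairs the groups were apart in 16.4% with the libraries labelled Fosl2cKO higher and in 16.3% with them lower, against 2 and 1 of 12 classes for Per1 and 1 and 2 of 9 for Ciart. These counts lie near the shares, and nothing is read from them. Of all genes tested, 22.5% were higher in luteal-like and 20.6% in NK or T-like cells. Lower ones were 14.6% in endothelial-like cells and 13.3% in the Abcb1b cluster. For Per1 the log2 fold change was 0.39 in NK or T-like cells and 0.63 in luteal-like cells, where both libraries labelled Fosl2cKO were higher, and -0.47 in endothelial-like cells, where both were lower. For Ciart it was 0.89 in luteal-like cells, where both were higher, -0.35 in the Abcb1b cluster and -0.66 in endothelial-like cells, where both were lower.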

How the results depend on the processing

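Dbp passed in 5 classes, and in 9 without the filter on low counts, in 3 without integration, where the Abcb1b cluster, 1 of the 5, was not run, and in 1 to 6 when each library was left out in turn. Another gene of the 10 passed in 0 classes, in 1 without the filter and in 0 to 2 with a library left out (2 without Fosl2F/F replicate 2 and 2 without Fosl2cKO replicate 2). Other clock genes passed in 0 tests, in 3 without the filter, in 1 with the replicate block and in 0 to 9 with a library left out, the 9 without Fosl2F/F replicate 2. Over all genes, 1 passed in all cells, against 149 with DESeq2, 4 without the filter, 38 with the replicate block and 1 to 81 with a library left out. Over the 13 classes 190 pairs passed, against 904 with DESeq2, 3272 without the filter, 623 with the replicate block, 93 at an adjusted p under 0.05 with no minimum fold and 450 to 2658 with a library left out. Of the 10 genes most like Dbp, 6 were also among the 10 at a mean of at least 50 CPM, and the others lie below that mean, so the change follows from the filter. The cause of the other changes was not tested. The replicate numbers share only a number: the deviations of same-numbered libraries had an r of -0.19 over 20308 genes. With the block Dbp passed in 4 classes. Because Dbp was chosen with this contrast known, nothing is read from its counts of classes under any setting. The count of all pairs that passed changed with the setting as well, from 190 to 3272 without the filter. A fit that leaves out a library has 1 sample in a group, which is assumed to vary like the other group. The log2 fold change of Dbp in all cells ran from 1.29 to 2.14 with a library left out and from 1.58 to 1.70 under the other settings.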
